A study of Homo sapiens with 3 samples.

Results

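The change in the transcriptome of HT29 cells between a chitosan membrane (CS) and tissue culture polystyrene (TCP) is described here, by gene function, from 1 array of each. HT29 is a widely used cell line from a human adenocarcinoma of the colon. Cells of both arrays were of this line, with no drug or genetic change named in the labels, and the study's methods give RPMI medium with fetal bovine serum. TCP is the standard culture plastic, and CS is a film of chitosan, a positively charged polysaccharide made from chitin. The remaining array of the series, from chitosan grafted with hyaluronan (CSHA), is given only beside the values it touches. The labels do not give the time in culture, the passage at harvest or the number of dishes behind an array, so a substrate, a culture and an array cannot be told apart. Genes were taken by their well-measured probes: 13640 of 21612 genes were well above background on both arrays, and the brightest probe stood for each gene.

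The colonic epithelium renews itself from crypt stem cells, whose daughters become absorptive colonocytes, goblet cells or enteroendocrine cells. Goblet cells secrete mucins, trefoil factors and small protease inhibitors, while colonocytes carry a brush border, take up salt and water and break down foreign compounds. HT29 cells keep part of both programmes, and in many lines of this kind the balance between them shifts with the growth conditions.

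Levels are given as relative signal, the background-corrected signal of a probe in percent of the 75th percentile of its array, and differences as log2 of CS over TCP. That percentile was 354 scanner units on TCP and 423 on CS, and no spot was saturated. The error after a difference is the SD expected from the spread among repeated spots of a probe at the same brightness, taken from 902 probes printed several times. It ran from 0.05 for bright genes to 0.55 near background and does not hold the spread between cultures, which 1 array a side cannot give. No p-value is therefore reported, and a gene was counted as changed by its size alone.

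Markers of the colon epithelium were mostly bright. Of 16 markers of colon epithelium 15 were measured on both arrays, KRT18 at 62914% on TCP and 52290.1% on CS and EPCAM at 11981% on TCP and 12826% on CS, and their summed relative signal was 147420% on TCP and 143534% on CS. CDH17, an intestinal cadherin, was dim at 9.32% on TCP and 12.1% on CS. Over all genes 63.1% were measured on both arrays. Of markers of other cells, 1 of 14 of fibroblasts and smooth muscle was so measured, 4 of 11 of blood cells and 2 of 14 of hepatocytes. For endothelium it was 6 of 10, near the share of all genes. COL1A1 and COL1A2 were not well above background on either array, and ALB was not well above background. PTPRC, the common leukocyte antigen, was at 11.1% on TCP and 12.4% on CS, and CD14 at 236% on TCP and 333% on CS. The measured blood cell markers summed to 310.3% on TCP and 455% on CS. All 4 were higher on CS, 2 by at least 1.5-fold, with a median log2 difference of 0.63 and CD68 highest at 0.80. The part of such markers in the differences below was not tested. CD3E was well above background on TCP alone, at 34.4%.

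Between CS and TCP most of the transcriptome differed little. Of the 13640 genes, 12818 (94%) lay within 1.5-fold, and the median difference was 0.04. At least 2-fold higher on CS were 87 genes, or 0.638% of those measured, and at least 2-fold lower were 98, or 0.718%. At 1.5-fold the counts were 388 higher (2.84%) and 434 lower (3.18%). With normexp background correction the 2-fold counts were 34 and 32. The highest gene was SPINK4, a protease inhibitor secreted by goblet cells, and the lowest was SNORA2B, a small nucleolar RNA. Many of the larger differences were of dim genes: 45 of the 87 and 63 of the 98 had a relative signal of at most 64.5% on the brighter array, as had the dimmest 25% of measured genes. Protein-coding genes, 12309 of the 13640 measured, made up 79 of those higher by that fold and 64 of those lower. These counts were 0.642% and 0.52% of the measured protein-coding genes, against 0.638% and 0.718% of all measured genes. Of 210 measured small nucleolar RNAs, 10 (4.76%) were at least 2-fold lower and 1 was higher. Just inside the 2-fold limit lay ADD2 at 1.01 and RP9P at -1.0001, and just outside it OAS2 at 0.9991 and TCF4 at -0.9996.

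**Figure D1:**
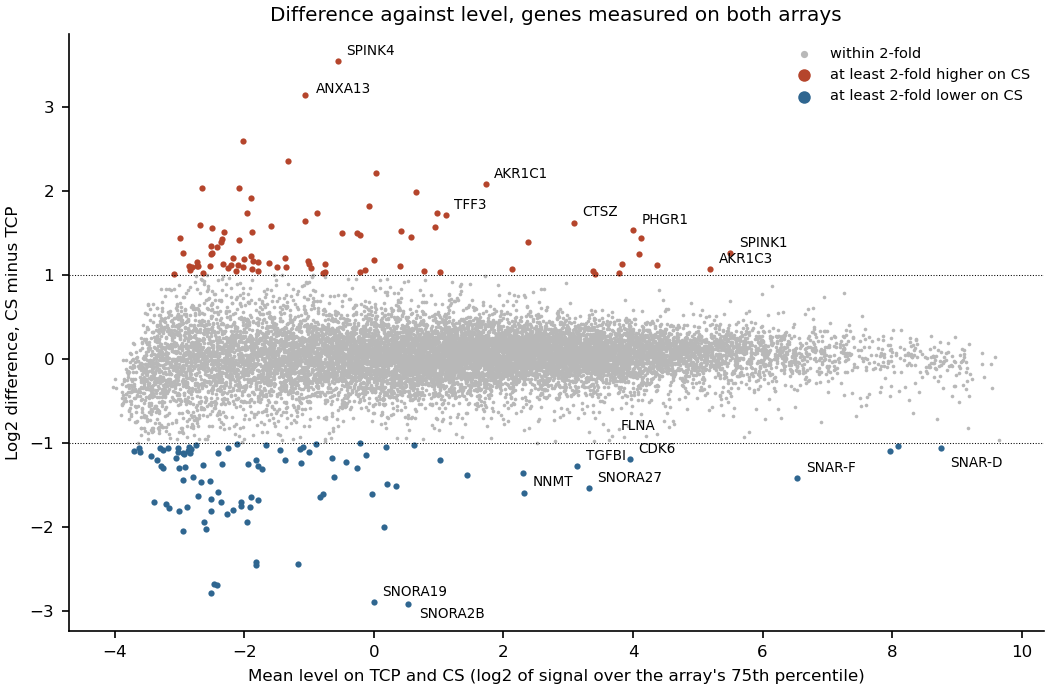
Log2 difference of CS minus TCP (vertical) against the mean level on the 2 arrays (horizontal, log2 of signal over the array's 75th percentile) for the genes measured on both arrays, with red points at least 2-fold higher and blue points at least 2-fold lower on CS. The cloud is wider at low levels, SPINK4 stands highest at 3.55, SNORA2B lowest at -2.92, and the SNAR transcripts are the brightest of the lower genes.

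Genes of goblet cells had the highest median of the 61 functional gene lists. The lists were chosen with earlier results of these data known, so this rank only describes them. Of 19 measured members of the goblet and secretory list, 15 were higher on CS, 9 by at least 1.5-fold and 5 by at least 2-fold, and 0 were lower by 1.5-fold. The list's median was 0.51, against 0.04 over all genes. SPINK4 had a relative signal of 19.9% on TCP and 232% on CS, a difference of 3.55 ± 0.17 or 11.7-fold. TFF3, the trefoil factor of intestinal goblet cells, which protects and repairs the mucosa, was at 119.6% on TCP and 391% on CS (1.71 ± 0.08), and its other probes gave 1.65 and 0.61. FCGBP, a mucus protein that binds the Fc part of IgG, was at 19.2% on TCP and 57.6% on CS (1.58 ± 0.19), and its difference ran from 0.96 to 1.64 over the alternative processing. The list thus held genes both dim and bright on TCP. SPINK1, a trypsin inhibitor and the brightest of them, stood at 2937% on TCP and 7010.04% on CS (1.26 ± 0.05). RETNLB, a goblet cell hormone-like protein with antibacterial action, was at 18.8% on TCP and 39.4% on CS (1.06 ± 0.20). KLF4, a transcription factor of goblet cell maturation, was higher by 0.98, and ST6GALNAC1, which adds sialic acid to mucin sugars, by 0.80. The members did not move as a block. SPDEF, the master factor of goblet cell maturation, was lowest at -0.58 (212% on TCP and 142% on CS), TFF1 was at -0.09 and TFF2 at -0.28. Of 6 measured mucins none passed 1.5-fold. MUC2, the gel-forming mucin of goblet cells, was at 36.4% on TCP and 30.6% on CS (-0.25 ± 0.16) with its next probe at 0.24, and MUC1, a membrane mucin, was at 0.57. Only 2 of 17 enteroendocrine genes on the array were measured on both arrays, NEUROG3 and GCG, and neither passed 1.5-fold.

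Genes of absorptive colonocytes were also higher on CS. Of 24 measured, 19 were higher, 10 by 1.5-fold and 6 by 2-fold, with 0 lower by 1.5-fold and a median of 0.24. PHGR1, a small protein of mature colonocytes, was at 939% on TCP and 2719% on CS (1.53 ± 0.06). CEACAM5, the carcinoembryonic antigen, was at 112% on TCP and 333% on CS (1.57 ± 0.08). CEACAM6 was at 302% on TCP and 636% on CS (1.07 ± 0.06). These 3 were well clear of background on both arrays. CEACAM7, a colonocyte member of the same family, was at 90.5% on TCP and 194% on CS (1.10 ± 0.09). The family did not move together: of 7 measured CEACAM genes 3 were at least 2-fold higher, while CEACAM1, by far the brightest, was at 5009.8% on TCP and 4562% on CS (-0.14 ± 0.05), CEACAM19 at -0.01, CEACAM20 at -0.16 and CEACAM3 at -0.52 (next probe -0.13). MYO1A, the brush border myosin, was at 14.5% on TCP and 38.7% on CS (1.42 ± 0.24). GUCA2A, which encodes guanylin, the peptide that drives chloride and fluid secretion, was at 10.3% on TCP and 30.5% on CS (1.56 ± 0.31). Both were near background on TCP, where the faintest signal to pass the background filter was 6.81%. DPP4, a brush border peptidase, was higher by 0.67 and SLC26A2, a sulfate transporter of colonocytes, by 0.67. Lowest was CDHR2, a cadherin that links microvilli, at -0.53. PLAC8 was at -0.33 with its next probe at -0.92, and TSPAN1, another bright colonocyte gene, at -0.03.

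**Figure D2:**
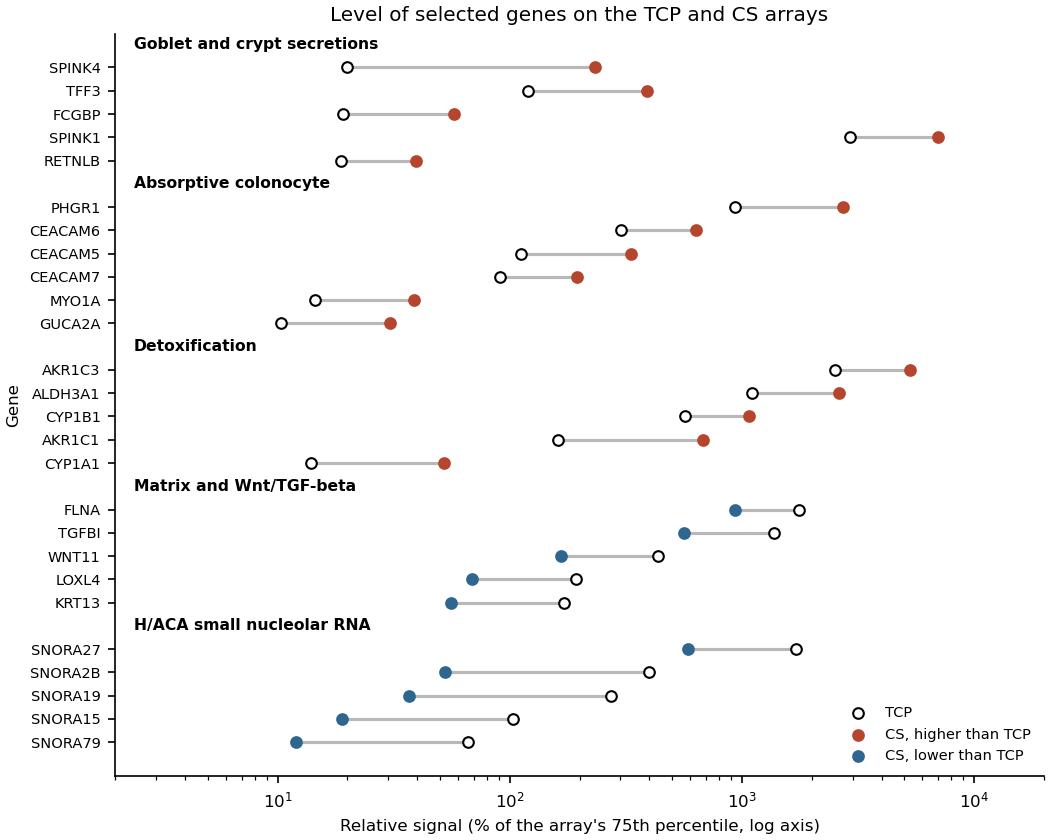
Relative signal (percent of the array's 75th percentile, log axis) of selected genes on the TCP array (open circles) and the CS array (filled circles, red where higher and blue where lower than TCP), 1 array each and grouped by function. SPINK4 runs from 19.9% to 232%, and SPINK1 and AKR1C3 are bright on both arrays. The small nucleolar RNAs and the matrix and Wnt/TGF-beta genes selected here lie lower on CS. In the full lists, 13 of 36 measured matrix genes and 80 of 231 small nucleolar and related RNAs were higher.

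Some single genes had large differences while the lists they belong to did not. ANXA13, an annexin found mainly in the intestine and kidney, was at 16.1% on TCP and 142% on CS (3.15 ± 0.21, 8.85-fold), the second largest difference. It was the only one of 22 measured annexins and S100 proteins past 1.5-fold. LGALS2, a galectin, a lectin that binds beta-galactosides, was at 107.5% on TCP and 359% on CS (1.74 ± 0.08), and LGALS4, a bright colonic galectin, was at 0.54. LGALS1, the galectin of mesenchymal cells, lay the other way at -0.80 (2008% on TCP and 1153% on CS). The galectins were counted in a list of 21 genes that handle chitin and its sugar, N-acetylglucosamine, whose median was 0.13, with 1 higher and 1 lower by 1.5-fold. CHIT1, a chitinase, was at 78.9% on TCP and 77.4% on CS (-0.03), and CTBS, the lysosomal chitobiase, was at 0.50. CTSZ, a lysosomal cysteine protease, was at 486% on TCP and 1495% on CS (1.62 ± 0.06), alone past 1.5-fold among 37 lysosomal genes, whose median was 0.10. SLC39A5, a zinc transporter, was at 42.3% on TCP and 119.5% on CS (1.498 ± 0.12) and KLK12, a kallikrein protease, at 11.9% on TCP and 33.8% on CS (1.51 ± 0.28). Among 212 solute carriers the median was 0.05, with SLC39A5 highest and SLC10A1, a bile acid transporter of the liver, lowest at -1.12 (20.7% on TCP and 9.52% on CS).

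Of 22 measured transcription factors of the intestine, 16 were higher and the median was 0.16. NR0B2, a nuclear receptor without a DNA-binding domain that is induced by bile acids through FXR, was at 29.9% on TCP and 99.4% on CS (1.74 ± 0.14) and was the member past 2-fold. HNF4G was at 36.8% on TCP and 73.3% on CS (0.995 ± 0.14). CDX2, which sets intestinal identity, was at 105% on TCP and 198% on CS (0.92 ± 0.09). The remaining members lay closer to 0. FOXA2 was at 0.54, ELF3 at 0.29, GATA6 at 0.24 and CDX1 at -0.04, while HNF4A was dim on both arrays (8.91% on TCP and 8.55% on CS, -0.06). HES1, the Notch target that holds cells from the secretory fate, was lowest at -0.64 (37.8% on TCP and 24.3% on CS). In the Notch list of 20 genes it was the member past 1.5-fold, with JAG1, a ligand, at -0.45 and LFNG at 0.36 (next probe 0.06). SOX9, a crypt factor, was at -0.21.

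Enzymes that reduce carbonyls and clear foreign compounds were higher on CS. In the list of NRF2 targets and aldo-keto reductases 22 of 25 measured genes were higher, 7 by 1.5-fold, and the median was 0.29. AKR1C1, which reduces steroids and aldehydes, was at 161% on TCP and 682% on CS (2.08 ± 0.07), and its next probe gave 1.42. AKR1C3 was at 2528% on TCP and 5308% on CS (1.07 ± 0.05). AKR1C8 was at 50.7% on TCP and 179% on CS (1.82 ± 0.11). The AKR1C genes are near-identical, so their probes may share transcripts. AKR1B10, an aldose reductase relative that acts on retinal, was bright at 11736% on TCP and 20148% on CS (0.78 ± 0.05), and its second probe gave 0.80. AKR1B1 was at 0.77 and AKR1B15 at 0.86. The classical NRF2 targets were less far from 0. NQO1 was at 0.40, GCLC, the catalytic subunit of glutathione synthesis, at 0.47 and HMOX1 at 0.30. GCLM, the partner subunit of GCLC, lay the other way at -0.78 (3240.1% on TCP and 1889% on CS). Of 14 aldehyde dehydrogenases 11 were higher. ALDH3A1 stood highest at 1102% on TCP and 2627% on CS (1.25 ± 0.06, next probe 1.06), with ALDH6A1 at 0.73 and ALDH3A2 at 0.67 (next probe 0.21). Of 21 glutathione transferases, sulfotransferases and UDP-glucuronosyltransferases 19 were higher, led by UGT2B11 at 0.91 and UGT2B7 at 0.82. The next probe of UGT2B11 gave -0.49. The 10 metallothioneins, which bind zinc and copper, lay between -0.27 for MT1X and 0.14 for MT2A.

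CYP1A1, the monooxygenase induced through the aryl hydrocarbon receptor, was at 13.9% on TCP and 52.1% on CS (1.91 ± 0.25), close to background on TCP, and ran from 1.08 to 1.96 over the alternative processing. CYP1B1, another target of that receptor, was bright at 572% on TCP and 1071% on CS (0.90 ± 0.06), and its second probe gave 0.91. CYP1B1-AS1, the antisense neighbour of CYP1B1, gave 0.88 and 0.67 by its 2 probes. TIPARP, a repressor of the receptor and one of its targets, was at 970.1% on TCP and 1284% on CS (0.40 ± 0.06). In the list of bile acid and nuclear receptor targets, which holds these genes, 11 of 14 were higher with a median of 0.39. GPBAR1, the membrane receptor for bile acids, was at 14.7% on TCP and 31.9% on CS (1.12 ± 0.25). The FXR targets in the list did not share a direction: NR0B2 was higher, SLC51B, a bile acid exporter, was at 0.50, FABP6, the ileal bile acid carrier, at 0.38, and FGF19, the hormone that the ileum sends to the liver, was lowest at -0.87 (17.4% on TCP and 9.52% on CS).

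Cholesterol synthesis genes were slightly but broadly higher. Of 25 genes, all of them measured, 23 were higher on CS, 2 by 1.5-fold and 0 by 2-fold, and the median was 0.29. INSIG1, the sterol sensor partner of SCAP, was at 416% on TCP and 721% on CS (0.79 ± 0.06). The pathway enzymes ran at 0.58 for HMGCS1, 0.52 for FDFT1, 0.51 for SQLE and 0.46 for DHCR7. SC5D was lowest at -0.18. Fatty acid oxidation genes had a median of 0.20, with 19 of 24 higher and none past 1.5-fold. PDK4, which closes the entry of pyruvate into the mitochondrion, was at 0.51. Of 81 nuclear genes of oxidative phosphorylation 66 were higher, none by 1.5-fold, with a median of 0.14, and of 76 mitochondrial ribosomal proteins 61 were higher, also with a median of 0.14. Over all genes 56.4% were higher. The hypoxia and glycolysis list was divided, with 17 of 33 higher. MXI1, a MYC antagonist induced by hypoxia, was at 0.89, VEGFA at 0.48 (next probe 0.11) and CA9 at 0.42, while SLC16A3, the lactate exporter, was at -0.60 (9267% on TCP and 6128% on CS) and SLC2A1, the glucose transporter GLUT1, at -0.34.

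Genes of adhesion and matrix were more often lower on CS. Of 45 integrin, laminin and focal adhesion genes 26 were lower, 5 of them and 1 higher gene passed 1.5-fold, and the median was -0.14. FLNA, the actin cross-linker filamin A, was at 1767% on TCP and 931% on CS (-0.92 ± 0.06), and its second probe gave -0.91. TNS4, a focal adhesion protein of epithelial tumours, was at 9929% on TCP and 6065% on CS (-0.71 ± 0.05). Both genes were bright on each array. ITGA2, the collagen receptor subunit, was near background (11.7% on TCP and 7.07% on CS, -0.73), ITGA3 was at -0.53 and ITGB1, the common beta subunit, at 0.23. LAMA2 stood highest at 0.95 (11.3% on TCP and 21.8% on CS). CAV1, the main protein of caveolae, was at 44.9% on TCP and 26.4% on CS (-0.77 ± 0.15, second probe -0.65), and TGM2, the enzyme that cross-links matrix proteins, at 245% on TCP and 142% on CS (-0.78 ± 0.08, second probe -1.07). CALD1, an actin-binding protein of contractile cells, was at -0.91, TMSB4X at -0.53 and ACTG1 at -0.36, whereas the brush border proteins PLS1 and VIL1 were at 0.52 and 0.25. In the matrix list of 36 genes, 2 were at least 2-fold lower. LOXL4, a collagen cross-linking oxidase, was at 194% on TCP and 68.7% on CS (-1.498 ± 0.09). TNC, the adhesion-modulating matrix protein tenascin C, was at 19.6% on TCP and 5.93% on CS (-1.73 ± 0.42), close to background on CS. LOXL1 was at -0.95. COL16A1 was at -0.74 by its brightest probe and -0.05 with the other. The basement membrane collagens were split, with COL4A2 at 0.66 (648% on TCP and 1024% on CS) and the dim COL4A1 at -0.63 (12.1% on TCP and 7.79% on CS). MMP14, a membrane-bound collagenase, was at 10.2% on TCP and 15.6% on CS (0.61 ± 0.34).

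Among keratins, KRT13, a keratin of stratified epithelia, was at 171% on TCP and 55.96% on CS (-1.61 ± 0.10) and KRT80 at -0.62, while KRT23 was at 1.09 (24.3% on TCP and 51.7% on CS) and KRT79 at 1.17 (18.3% on TCP and 41.1% on CS). The simple keratins that make up the filaments of colon cells differed less, with KRT8 at 0.15 (next probe -0.07), KRT18 at -0.27 and KRT20 at 0.24. Of 44 tubulin and microtubule genes, 2 were at least 2-fold higher. TPPP3, a protein that bundles microtubules, was at 78.6% on TCP and 311% on CS (1.98 ± 0.09), and its relative TPPP was at 27.2% on TCP and 84.7% on CS (1.64 ± 0.15). Among the tubulins TUBB3 was at -0.67, TUBB4B at -0.55 and TUBA1A at -0.36, while TUBB2A was at 0.29 by one probe and -0.14 by another. Of 27 cilium genes 21 were higher, 4 by 1.5-fold, with a median of 0.27. FOXJ1, the master factor of motile cilia, was at 59.2% on TCP and 114% on CS (0.95 ± 0.11), and IFT74, a subunit of the intraflagellar transport train, at 73.8% on TCP and 133.7% on CS (0.86 ± 0.09). Junction genes were divided, with OCLN, which encodes occludin, at 0.60, CLDN3 at 0.55, CLDN2, the pore-forming claudin, at -0.38 and PPL, a desmosomal plakin, at -0.70. CDH1, which encodes E-cadherin, was at 1989% on TCP and 2075% on CS (0.06 ± 0.05) and EPCAM at 0.10.

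Signalling genes gave scattered differences. WNT11, a ligand of the non-canonical Wnt branch, was at 437% on TCP and 167% on CS (-1.39 ± 0.07), and DKK1, a secreted Wnt inhibitor and itself a Wnt target, at 1724% on TCP and 882% on CS (-0.97 ± 0.06). AXIN2, the feedback inhibitor of the pathway, was at -0.55 (379% on TCP and 259% on CS), but its next probe gave -0.08. The Wnt target and crypt list had members on either side, with 21 of 32 higher, 2 higher and 2 lower by 1.5-fold and a median of 0.07. TGFBI, a matrix protein induced by TGF-beta, was at 1376% on TCP and 565% on CS (-1.28 ± 0.06), and PMEPA1, a feedback inhibitor induced by TGF-beta, at 702% on TCP and 395% on CS (-0.83 ± 0.06). SMAD7 was at -0.33, ID1, a BMP target, at -0.26 and BMP2 at 0.68. CDKN2B, a CDK inhibitor induced by TGF-beta, was dim at 20.1% on TCP and 9.38% on CS (-1.10 ± 0.33). Of 24 Hippo pathway and YAP target genes 18 were lower and none passed 1.5-fold, with a median of -0.15. AMOTL2 was at -0.58, CCN1 at -0.43 and PTPN14 at -0.39. DUSP4, a phosphatase induced by ERK, was at -0.63 and EGR1, an immediate early factor, at -0.72 (513% on TCP and 310.5% on CS), while BTC, an EGF family ligand, was at 0.74 and JUN at 0.53. IHH and RAMP1 lie outside these lists. RAMP1, a partner of the calcitonin receptor-like receptor, was at 90.4% on TCP and 247% on CS (1.45 ± 0.09, second probe 1.19), and IHH, the hedgehog ligand of differentiated colonocytes, which was chosen after its values were seen, at 321% on TCP and 846% on CS (1.40 ± 0.06).

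The cell cycle lists did not share a direction. Of 49 replication genes 32 were lower, with a median of -0.11 and CDC25A lowest at -0.61 (367% on TCP and 241% on CS). The mitosis list had a median of -0.02, and ran from -0.09 to 0.03 over the alternative processing. FOXM1, the factor that drives mitotic genes, was at 976% on TCP and 645% on CS (-0.60 ± 0.06), AURKB at -0.44 and MKI67, the gene of Ki-67, at -0.38 (next probe -0.03), but HMMR was at 0.39 and CDK1 at 0.14. The clustered histones had a median of 0.10, with 58 of 73 higher and none past 1.5-fold. The list of CDK inhibitors and p53 targets had a median of 0.12, with 22 of 33 higher, 3 by 1.5-fold, and 1 lower by 1.5-fold. TP53INP1, a p53-induced regulator of stress, was at 10.3% on TCP and 22.3% on CS (1.11 ± 0.31), and BTG1, another p53 target, at 0.61. Cytosolic ribosomal proteins had a median of 0.01 over 85 genes. In the ATF4 list NUPR1, a small stress-induced chromatin protein, stood at 79.3% on TCP and 227% on CS (1.52 ± 0.09) and GDF15 at 0.74, while DDIT3, which encodes CHOP, was at -0.40 and the list's median was 0.0088. ATF6B was at 47.6% on TCP and 221% on CS (2.22 ± 0.11) by its sole measured probe, the only one of 26 unfolded protein response genes past 1.5-fold, with XBP1 at 0.19 and HYOU1 at -0.40. The medians of the ATF4, ribosomal protein and mitosis lists, and that of the solute carriers, changed sign with the scaling or filter. TERT, the catalytic subunit of telomerase, was at 52.1% on TCP and 26.7% on CS (-0.97 ± 0.15).

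**Figure D3:**
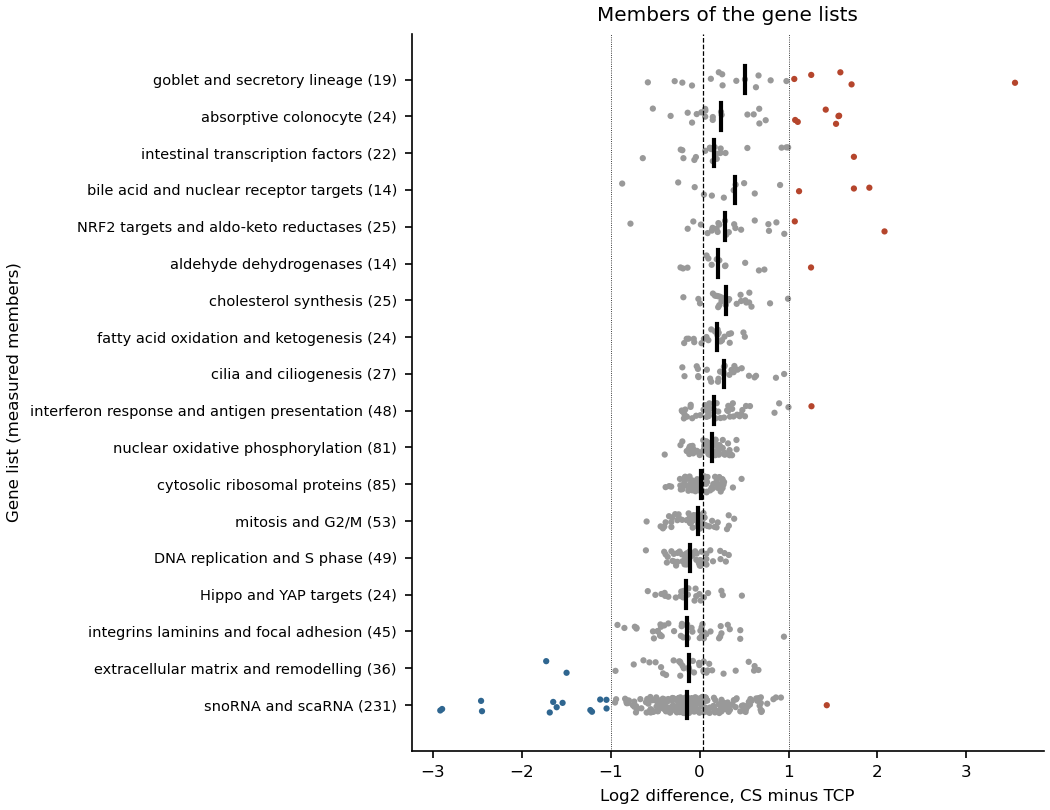
Log2 difference of CS minus TCP for each measured member of 18 gene lists, with the number of members in brackets, the list's median as a black bar and the median of all genes as a dashed line. Red points are at least 2-fold higher and blue points at least 2-fold lower, and the goblet list has the highest median, 0.51, of those shown, while the small nucleolar RNAs spread farthest to the left.

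Interferon response genes were mostly higher by small amounts. Of 48 measured, 38 were higher, 4 by 1.5-fold and 0 were lower by 1.5-fold, with a median of 0.16. IFITM1, which blocks the entry of viruses, was at 11.4% on TCP and 27.3% on CS (1.26 ± 0.29), OAS2, which makes the activator of RNase L, at 26.5% on TCP and 53.04% on CS (0.999 ± 0.16), and RSAD2 at 11.9% on TCP and 22.1% on CS (0.89 ± 0.29). These 3 were dim. IFIH1, the sensor of double-stranded RNA also called MDA5, was at 137% on TCP and 203% on CS (0.57 ± 0.08). ISG15, a ubiquitin-like protein and bright on both arrays, was at 6782% on TCP and 6060.4% on CS (-0.16 ± 0.05). Many such genes carry, close to their start site, the element that interferon-activated factors bind. A pair of GAAA separated by any 2 bases was searched on both strands of RefSeq promoter windows of the GRCh38.p14 assembly, from 250 bases before to 50 after the start. It was in 996 of 27305 windows (3.65%) and in 22 of the 36 measured list members that had a window. That share is a property of the genes listed and not a result of these arrays. The members with a match had a median difference of 0.20 and those without of 0.10, and this gap was not tested. Windows of a gene that was higher, of one less far from 0 and of one that was lower are shown, with the matches in capitals and overlapping matches run together. They are IFITM1 (chr11:313790-314089, + strand), IFIH1 (chr2:162318635-162318934, - strand) and ISG15 (chr1:1013247-1013546, + strand).
IFITM1: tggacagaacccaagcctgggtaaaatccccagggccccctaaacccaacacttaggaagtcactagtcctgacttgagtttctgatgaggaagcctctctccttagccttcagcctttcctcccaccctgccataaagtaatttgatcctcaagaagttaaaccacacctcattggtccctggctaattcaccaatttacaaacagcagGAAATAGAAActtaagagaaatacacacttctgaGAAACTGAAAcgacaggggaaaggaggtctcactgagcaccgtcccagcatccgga
IFIH1: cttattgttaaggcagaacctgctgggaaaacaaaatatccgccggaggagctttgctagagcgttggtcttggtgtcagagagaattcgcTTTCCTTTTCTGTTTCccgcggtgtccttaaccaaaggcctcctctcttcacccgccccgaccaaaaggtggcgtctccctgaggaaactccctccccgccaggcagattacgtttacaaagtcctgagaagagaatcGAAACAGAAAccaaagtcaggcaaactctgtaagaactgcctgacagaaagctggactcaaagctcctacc
ISG15: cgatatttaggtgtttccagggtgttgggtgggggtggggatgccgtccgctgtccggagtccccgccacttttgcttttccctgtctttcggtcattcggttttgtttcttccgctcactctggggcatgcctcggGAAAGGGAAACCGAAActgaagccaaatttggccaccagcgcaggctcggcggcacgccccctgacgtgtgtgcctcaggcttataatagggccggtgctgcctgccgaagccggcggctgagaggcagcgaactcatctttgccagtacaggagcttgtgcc
The pair stood 2 times in IFITM1, 3 times in IFIH1 and 2 times in ISG15, whose differences were 1.26, 0.57 and -0.16. For comparison, TCACNCCAC, the letters of a sterol regulatory element, were in 1.15% of all windows and in 1 of 18 cholesterol synthesis genes with a window, and TNGCGTG, the letters of the aryl hydrocarbon receptor's element, were in 5.51% of all windows and in 0 of the 9 bile acid and nuclear receptor genes with one. GTTAAT followed by any base and ATT, the letters of an HNF1 site, were in 0.293% of windows and in 0 of 17 absorptive colonocyte genes. With such low shares over all windows and so few members, counts near 0 carry little information. Elements farther from the start than the window could not be found, so these counts do not show that the genes lack them.

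Small nucleolar RNAs, which guide the chemical modification of ribosomal and spliceosomal RNA, included the lowest difference among genes measured on both arrays. Their values are probe signals. The labels and the methods name different RNA kits, and how well such short RNAs were recovered and labelled on each array was not tested. The H/ACA class (SNORA genes) guides the conversion of uridine to pseudouridine and the C/D class (SNORD genes) guides methylation of ribose. Of 97 measured SNORA genes 71 were lower on CS, 22 by 1.5-fold and 10 by 2-fold, 1 was higher by 1.5-fold, and the median was -0.25. Of 113 SNORD genes 68 were lower, with 5 lower and 12 higher by 1.5-fold and a median of -0.09. The split by class was chosen after the values were seen. SNORA2B was at 397% on TCP and 52.5% on CS (-2.92 ± 0.09), 7.56-fold lower. SNORA19 was at 274% on TCP and 36.7% on CS (-2.90 ± 0.11). SNORA27, the brightest of the 10, was at 1709% on TCP and 587% on CS (-1.54 ± 0.06). SNORA36A was lower by both of its probes, at -1.61 and -1.24. SNORA15 was at 103% on TCP and 18.9% on CS (-2.45 ± 0.16) and SNORA79 at 66.3% on TCP and 12.1% on CS (-2.46 ± 0.25). Of the C/D class, SNORD59B was highest at 11.96% on TCP and 32.2% on CS (1.43 ± 0.28), near background on TCP, and the brighter SNORD26 was at 1152% on TCP and 1863% on CS (0.69 ± 0.06). Among the Cajal body RNAs, which act on spliceosomal RNA, SCARNA11 was at -1.69 and SCARNA9 at 0.76.

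Most small nucleolar RNAs are cut from introns of a host gene. Among SNORA genes lower by at least 1.5-fold, 19 lie within exactly 1 measured gene, and by their brightest probes the hosts were within 1.5-fold in all 19 cases, from -0.38 to 0.25. The median was -0.95 for these RNAs and -0.01 for the hosts. SNORA19, at -2.90, lies in EIF3A, which was at 0.09. SNORA2B lies in KANSL2, at -0.07, and SNORA15 in CCT6A, a chaperonin subunit, at 0.11. SNORA36A lies in DKC1, which encodes the pseudouridine synthase of the H/ACA particle itself, at 0.04 by its brightest probe but -0.87 by the next. Of 6 such hosts with another measured probe, DKC1 was the one past 1.5-fold by it. SNORA27 lies in RPL21, a ribosomal protein gene, at -0.08. In the other direction, the 11 SNORD genes at least 1.5-fold higher with 1 measured host had a median of 0.69 and their hosts of -0.08. The positions were read from the annotation of GRCh38.p14 and used only to pair the genes.

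**Figure D4:**
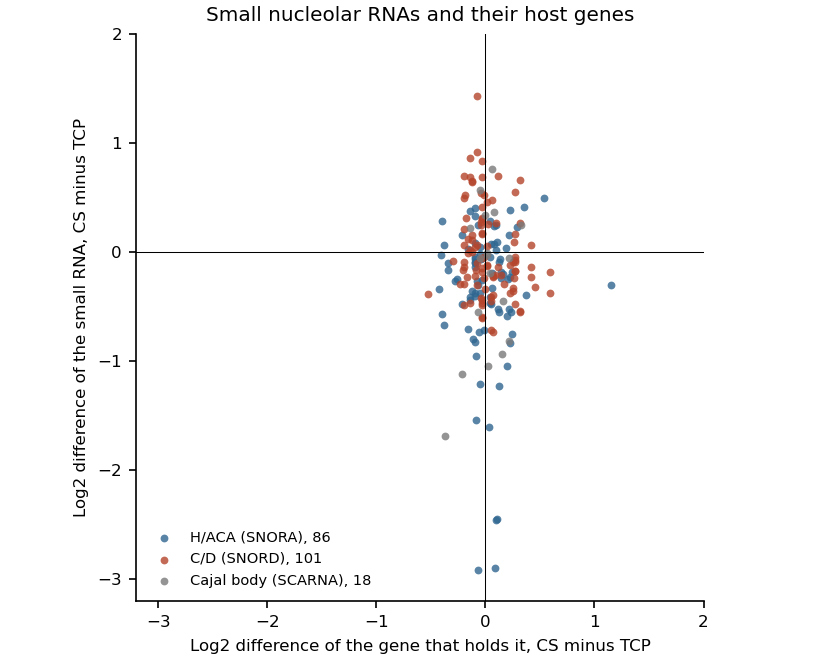
Log2 difference of CS minus TCP of H/ACA, C/D and Cajal body RNAs (vertical) against that of the gene that holds each (horizontal), both axes to the same scale. Nearly all host genes lie within 1.5-fold, RAB30 at 1.15 being farthest out, while the small RNAs spread from -2.92 for SNORA2B to 1.43 for SNORD59B.

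A further family of small RNAs was lower as a whole. SNAR transcripts, short non-coding RNAs, come from near-identical gene copies on chromosome 19 and elsewhere, so their probes are not separate measurements. This family was also picked after its values were seen, and the recovery and labelling of these short RNAs was likewise not tested. All 7 measured SNAR genes were at least 1.5-fold lower on CS and 5 were 2-fold lower, with a median of -1.07. SNAR-F was at 15236% on TCP and 5681% on CS (-1.42 ± 0.05) and SNAR-D at 62828% on TCP and 29978% on CS (-1.07 ± 0.05). SNAR-A3 was the brightest, at 113111% on TCP and 57709.9% on CS (-0.97 ± 0.05).

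Apart from the SNAR genes and SNORA27, 2 genes of the brightest 25% were lower by 2-fold, TGFBI and CDK6, and 11 were higher by 2-fold. The genes described next were chosen after their values were seen. CDK6, a kinase of the G1 phase, was at 2343% on TCP and 1024% on CS (-1.19 ± 0.05). NNMT, which methylates nicotinamide and was less bright, was at 866% on TCP and 287% on CS (-1.60 ± 0.06). On CSHA CDK6 was at 2804%, above TCP, while TGFBI at 607% and NNMT at 231% lay below TCP. The higher ones were CTSZ, PHGR1, SPINK1, ALDH3A1, AKR1C3, PRR15L, LINC02245, CASC15, VPS18, CD86 and SPEN. SPEN gave 1.01 with one probe and -0.11 with another. LINC02245 was at 1062% on TCP and 2883% on CS (1.44 ± 0.06) and at 729.6% on CSHA. VPS18, a subunit of the complexes that tether vesicles to lysosomes, was at 1398% on TCP and 3032% on CS and at 939% on CSHA. CD86, a costimulatory protein of antigen-presenting cells, was at 722% on TCP and 1494% on CS and at 392% on CSHA, and CASC15 was at 962% on TCP and 2101% on CS and at 634%. For LINC02245, VPS18, CD86, CASC15 and SPEN the CSHA array thus lay below TCP. Among the goblet and colonocyte genes past 2-fold, SPINK4 stood at 714% on CSHA, TFF3 at 904% and PHGR1 at 4335%, each above its level on CS. SPINK1 stood at 6412% and GUCA2A at 14.9% on CSHA, each below its level on CS. CTSZ, of the lysosome list, was at 6518% on CSHA. Both membranes are set against the same TCP array, so an error of that array would enter both differences.

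Large differences were also found in dim genes with 1 measured probe. MEF2C, a transcription factor of muscle, was at 10.1% on TCP and 60.6% on CS (2.59 ± 0.30) and at 12.3% on CSHA. VSNL1, a neuronal calcium sensor, was at 11.6% on TCP and 47.6% on CS (2.04 ± 0.28), and BTNL8, a butyrophilin-like protein of the gut epithelium, at 7.85% on TCP and 32.1% on CS (2.03 ± 0.36). MGAT3, which adds the bisecting N-acetylglucosamine to N-glycans, was at 17.6% on TCP and 90.4% on CS (2.36 ± 0.20). MAOA, the oxidase of serotonin, was at 49.97% on TCP and 141% on CS (1.49 ± 0.11). Over the alternative processing the difference of MEF2C ran from 1.33 to 2.64. Among the lower ones, DLGAP3, a postsynaptic scaffold protein, was at 45.9% on TCP and 6.62% on CS (-2.79 ± 0.38), MYO3A, a myosin of the inner ear, at 45.6% on TCP and 7.12% on CS (-2.68 ± 0.37), ZNF596 at 47.7% on TCP and 7.33% on CS (-2.70 ± 0.36) and PFN4 at 65.3% on TCP and 12.2% on CS (-2.42 ± 0.25). The 10 lower genes DLGAP3, ZNF596, MYO3A, ULBP3, MAP7D2, NLRP3, CD28, WDFY4, PINLYP and VGLL1 had between 6.06% and 9.32% on CS, where the faintest signal to pass the background filter was 5.09%.

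Where a gene had more than 1 measured probe the probes could be set against each other. There were 3560 such genes, and in 2162 of them (60.7%) all probes differed in the same direction. The brightest and the next probe were a median of 0.17 apart, and 0.63 apart at the 95th percentile. Across genes the differences by these probes had a correlation of 0.44. The median spot error of a difference was smaller than this median gap, at 0.07. By every probe, 5 genes (0.14%) passed 2-fold upward and 2 (0.0562%) downward. The 5 were AKR1C1, RAMP1, LINC02532, ALDH3A1 and HHLA2, a B7 family ligand at 1.43 and 1.06, and the 2 were SNORA36A and RASSF10, a Ras association protein at -1.21 and -1.63. Of the 87 higher genes, 11 had another measured probe, which gave the same direction in 6. The exceptions, some of them chosen after their values were seen, were TP73, a p53 relative, at 1.73 and -0.22, MIR9-3HG at 1.35 and -0.08, GIHCG at 1.11 and -0.33, AQP1, a water channel, at 1.03 and -0.63, and SPEN. Of the 98 lower genes 9 had another and 7 kept the direction, the exceptions being LINC00910 at -1.68 and 0.71 and ARHGAP30 at -1.08 and 0.83.

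Below 2-fold, the following were among the genes with the largest difference shared by every probe. AZGP1, a zinc-binding glycoprotein of secretory epithelia, was at 0.87 and 0.98. TNFSF10, the death ligand TRAIL, was at 0.83 and 0.95. NDRG2 was at 0.78 and 0.65, and CKMT1A, a mitochondrial creatine kinase, at 0.83 and 0.69. On the lower side LMO4, a LIM domain regulator, was at -0.89 and -0.99, ADAM19, a membrane protease, at -0.78 and -0.78, ELF5, an epithelial transcription factor, at -0.78 and -1.01, JCAD, a junction protein, at -0.85 and -0.91, and CAPRIN2 at -0.78 and -0.76.

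**Figure D5:**
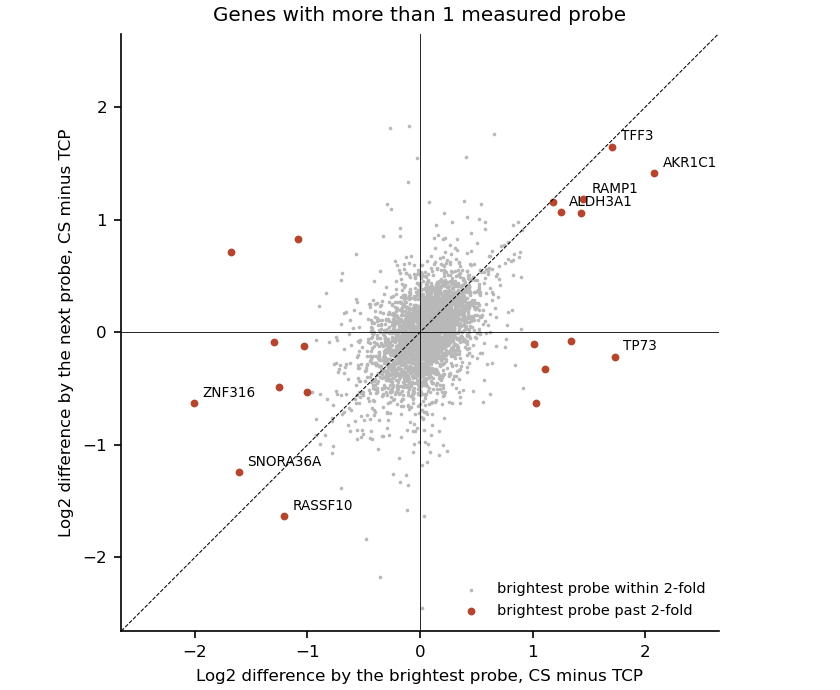
Log2 difference of CS minus TCP by the next brightest probe (vertical) against that by the brightest probe (horizontal) for 3560 genes, with the line of equality dashed and genes past 2-fold by the brightest probe in red. TFF3, RAMP1 and ALDH3A1 lie near the line. AKR1C1 lies at 2.08 by the brightest probe and 1.42 by the next, and TP73 at 1.73 and -0.22.

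By its brightest probe a further 1056 genes passed the background filter on a single array, 752 on CS and 304 on TCP. That probe gives only a bound. The dim side was taken as its own signal or, where that was smaller, as the faintest signal that passed the background filter there. AGR3, a relative of the goblet cell protein AGR2, was at 7.16% on TCP and 68.2% on CS. Its TCP signal lay above the faintest that passed there, 6.81%, so its 9.52-fold is the observed ratio and not a firm bound. HOXD3 had a bound of 8.96-fold and ARG1, the urea cycle arginase, of 6.71-fold. TTR, the carrier of thyroid hormone, was at least 6.18-fold higher and BAAT, which joins bile acids to amino acids, at least 6.33-fold. In the other direction DNAJB8-AS1 stood at 2635% on TCP and 1.24% on CS, at least 518-fold lower, and at 1.61% on CSHA. FREM1, a basement membrane protein, was at least 13.9-fold lower and the potassium channel genes KCNJ10 and KCNK4 at least 12.4-fold and 8.81-fold lower. In all, 111 of the 752 genes had a bound past 2-fold upward and 170 of the 304 downward. As with AGR3, some of these are observed ratios and not firm bounds. The faintest signal that passed was 5.09% on CS, lower than on TCP, so the 2 directions are not on equal terms.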

How the data were processed

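RNA of HT29 cells was hybridised to 1 single-colour Agilent array for each of TCP, CS and CSHA, all on 1 slide. The intensity values are those the authors deposited from Agilent Feature Extraction 10.7.3.1, per the file headers, already corrected for background. The authors also deposited a log2 table of the same arrays, centred for each spot, which served as an alternative. The labels and the methods name different RNA kits, so the kit is not settled here.

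Signals below 1 were set to 1, and log2 values were taken after dividing by the array's 75th percentile. Spots flagged as outliers were left out and spots of a probe were averaged. A probe counted as measured where it was well above background on both arrays; taken singly, 48.6% of probes were so on TCP and 51.1% on CS. Probes were named through RefSeq accessions: 30004 of 50599 matched. The probe with the highest mean level over the 3 arrays stood for a gene, whether or not it was measured. The deposited files hold 1 array per condition, so no test was run and the number of arrays limits the precision.

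Named genes were the largest differences each way, those with agreeing probes, the largest bounds and the extremes of 66 gene lists; further list members were named for their role. Some members that were counted are not reported here by name. The members and lists were chosen with earlier results of these data known. Python 3.11.15, numpy 2.4.6, pandas 2.3.3, matplotlib 3.10.9, R 4.3.3 and limma 3.58.1 were used, and the code was tested on simulated data.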

Additional observations from a re-analysis of the deposited data

Results flagged for a closer look

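Probes without a matched gene were used in no comparison. Of 5362 such probes measured on both arrays, 53 were at least 2-fold higher on CS and 107 were at least 2-fold lower, by the same measure as for the genes.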

How the results depend on the processing

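Counts past a fold depended on how dim signals were treated, while most medians moved by little. Of 567 list medians under the alternatives 67, in 26 lists, had the other sign. Outside the setting with no filter on dim probes, these were lists whose median was at most 0.0611 in size. For the genes named for the largest differences or for agreeing probes, 577 of 740 values moved by little, 163 moved and 0 changed sign. These genes were picked by their differences on the same arrays, so a change of sign was unlikely from the start. Genes named by a bound or only as list members were not covered. Genes at least 2-fold higher numbered 34 with normexp background correction, 34 with the deposited log2 values, 635 with no filter on dim probes, 38 among brighter probes only, 5 with agreeing probes and 198 with bounds counted. Genes at least 2-fold lower numbered 32, 40, 1152, 35, 2 and 268 under the same settings. At 1.5-fold the higher genes numbered 192, 170, 1349 and 220 under the first 4 of these settings, and the lower genes 189, 242, 2056 and 226. With no filter on dim probes the median of all genes was -0.0528, and 14 list medians changed sign, 4 of them from above 0.1: hyaluronan receptors and enzymes at -0.0165, annexins and S100 proteins at -0.0763, serpins, kallikreins and protease inhibitors at -0.3391, and regenerating proteins, lectins and defensins at -0.4130. The cause was not tested, except that without the filter more genes enter the count. No paired analysis was possible because each condition has 1 array, and for the same reason no array could be left out. Signal over background limits the dim genes most.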
